A study of Callithrix jacchus with 6 samples.

Results

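Voltage-gated potassium channel alpha subunits, the Kv proteins that form the potassium-selective pore, were described here in single cells of the aged common marmoset hippocampus. The members were all genes whose symbol was KCNA, KCNB, KCNC, KCND, KCNF, KCNG, KCNH, KCNQ, KCNS or KCNV followed by a number, which gave 38 of the 29320 genes counted. Hippocampi of aged marmosets (Callithrix jacchus, a small primate) were taken after 6 h of oxygen, the control, or 6 h of sevoflurane, an inhaled anaesthetic, with 3 libraries in each group. The series title concerns FKBP5 in microglia after sevoflurane, and the design text also names mice, which were not analysed here. The labels do not say whether the 3 libraries of a group came from separate animals, so p-values here measure only the spread between these libraries, which may be technical. Tissue was digested with collagenase at 37 °C and the suspensions were frozen before 3′ tag sequencing, so the cells had passed through dissociation.

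Kv alpha subunits open when the membrane is depolarised and let potassium out, which ends the action potential, sets its width and limits repetitive firing. The Kv1 (KCNA), Kv2 (KCNB), Kv3 (KCNC), Kv4 (KCND) and Kv7 (KCNQ) families and the EAG, ERG and ELK group (KCNH) form channels of their own. KCNF, KCNG, KCNS and KCNV subunits are called silent because they carry current only when joined to Kv2 subunits. In the hippocampus, Kv4 channels carry the fast transient current of dendrites, Kv3 channels serve fast-spiking interneurons, and Kv7 channels carry the M current that muscarinic receptors close.

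After doublets were removed, 44344 of 46582 barcodes remained, between 6682 and 8182 per library, holding 38248983 to 44369984 unique molecular identifiers (UMIs) per library. Clusters, formed without any of the 38 genes, were named from marker lists, and 41246 cells fell into named classes, 21436 of them in the glutamatergic-like and GABAergic-like neuron classes. Any pair of libraries shared 13 to 27 barcode sequences. Sevoflurane replicate 3 stood apart in makeup: it held 0 to 4 cells of glutamatergic clusters 5, 6, 7, 8, 18, 19 and 20 and most of clusters 23, 25 and 26. Cluster 23, with 1094 of its 1358 cells from that library, was named cortical upper layer-like, so the glutamatergic-like values of sevoflurane replicate 3 come largely from other clusters than those of the other libraries. Clusters it did not fill were therefore compared between 3 oxygen and 2 sevoflurane libraries. Levels below are CPM, a gene's UMI count scaled to the total of all UMIs in that class or cluster of a library, and each error is the SD over libraries. CPM was used to compare 1 gene between cell types, not different genes with each other.

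Of the 38 members, 19 reached a mean of 10 CPM in at least 1 of the 7 classes that every library filled, and 14 reached 50 CPM. Of those 19, 9 were highest in glutamatergic-like neurons, 4 in GABAergic-like neurons and 6 in a non-neuronal class. The other 19 stayed under 10 CPM in every one of those classes. KCNA7 and KCNA10 had no UMI in any cell, and KCNV2, KCNH6, KCNS3, KCNA5, KCNS2 and KCND1 had 6 to 21 UMIs over all cells. These orders come from clusters of the same cells and are given without a test.

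**Figure D1:**
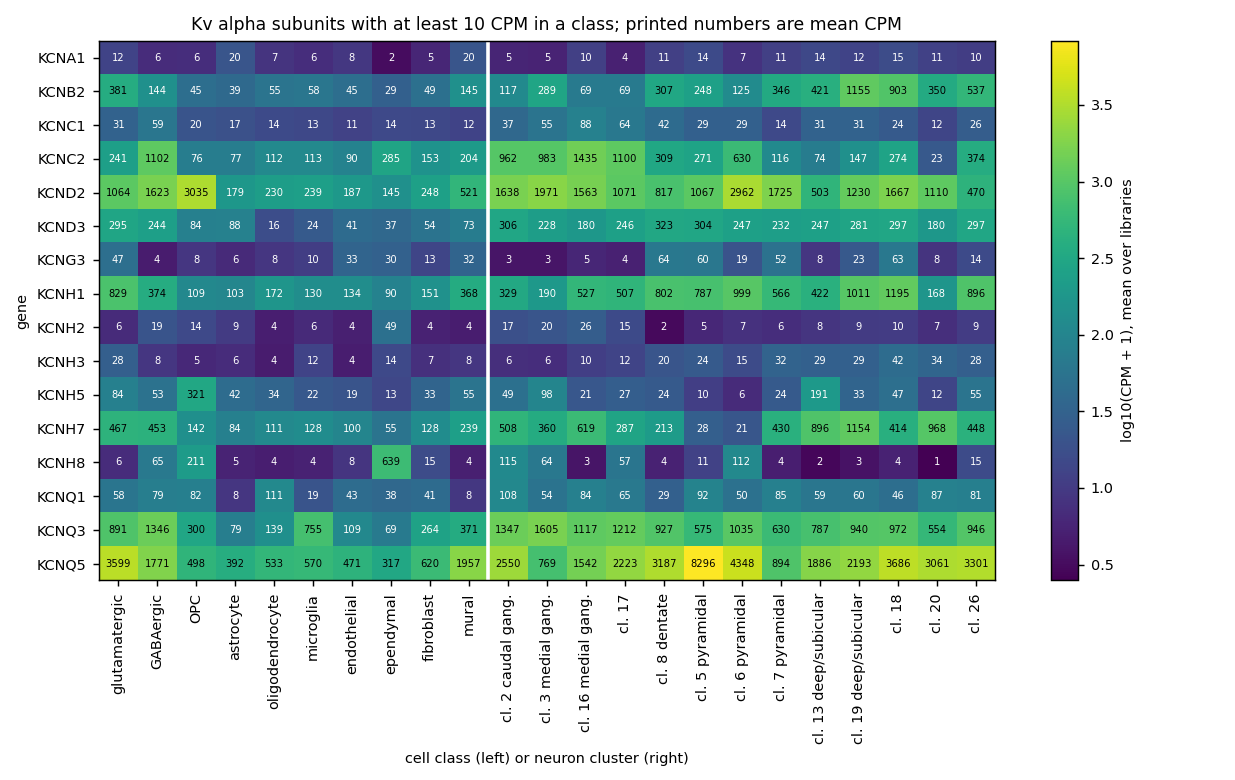
Mean CPM over libraries, as colour on a log scale and as printed numbers, of Kv alpha subunits with at least 10 CPM in a class, with cell classes in the left columns and single neuron clusters in the right columns. KCNQ5 was highest in glutamatergic-like neurons (3599 CPM), KCNC2 in GABAergic-like neurons (1102 CPM), and KCND2 in OPC-like cells (3035 CPM).

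Kv1 transcripts, which in neurons encode axonal channels, were scarce. KCNA1 was the only Kv1 member to reach 10 CPM, with 20.1 ± 9.7 CPM in astrocyte-like cells (SD, n = 6) and 11.8 ± 1.5 CPM in glutamatergic-like neurons, the former being higher in 5 of 6 libraries. KCNA2, KCNA3, KCNA4 and KCNA6 had class means of at most 2.41 CPM. KCNA3, a subunit known from activated microglia, had 0, 1 and 1 UMIs in microglia-like cells of oxygen replicates 1 to 3 and 1, 0 and 1 UMIs in those of sevoflurane replicates 1 to 3, too few for a comparison; it was chosen after its values were seen.

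The Kv2 subunit KCNB2, part of the delayed rectifier clustered on the soma, was highest in glutamatergic-like neurons. There it was at 552, 460 and 532 CPM in the oxygen libraries and at 277, 259 and 208 CPM in the sevoflurane libraries, and the groups did not overlap. GABAergic-like neurons had 144 ± 28.7 CPM of KCNB2, less in 6 of 6 libraries. Among clusters it ran from 69.0 CPM in medial ganglionic eminence-like cluster 16 to 1155 ± 300.2 CPM in deep layer or subicular-like cluster 19 (n = 5).

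The Kv3 members KCNC2 and KCNC1 were ordered the other way between the neuron classes. KCNC2 in GABAergic-like neurons was at 1044, 1216 and 1343 CPM in oxygen replicates 1 to 3 and at 1027, 1142 and 841 CPM in sevoflurane replicates 1 to 3, so that the groups overlapped. Glutamatergic-like neurons had 241 ± 62.3 CPM, lower in 6 of 6 libraries. KCNC1 followed the same order, with 56.0, 47.5 and 62.3 CPM in the oxygen libraries and 58.1, 60.6 and 67.4 CPM in the sevoflurane libraries of the GABAergic-like class, against a mean of 31.1 CPM in the glutamatergic-like class. Within the GABAergic-like class both were highest in cluster 16, named medial ganglionic eminence-like from its markers, the lineage that holds the fast-spiking parvalbumin cells. KCNC1 was at 88.0 ± 10.6 CPM in cluster 16 and at 37.3 ± 7.33 CPM in caudal ganglionic eminence-like cluster 2. KCNC2 was at 1435 ± 179 CPM in cluster 16 and at 983 and 962 CPM in clusters 3 and 2. Hippocampal pyramidal-like cluster 6 had 630 CPM of KCNC2, against 271 and 116 CPM in clusters 5 and 7 of the same name. KCNC4 stayed under 10 CPM.

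Of the Kv4 members, KCND2 was highest outside the neurons. OPC-like cells, the oligodendrocyte precursors, had 3345, 3173 and 2929 CPM in oxygen replicates 1 to 3 and 2809, 2959 and 2993 CPM in sevoflurane replicates 1 to 3. GABAergic-like neurons had 1623 ± 233 CPM and glutamatergic-like neurons 1064 ± 150 CPM, each below the OPC-like value in 6 of 6 libraries. Cluster 6 again led the hippocampal pyramidal-like clusters, with 2962 ± 468 CPM against 1067 CPM in cluster 5 and 1725 CPM in cluster 7 (n = 5). KCND3 was even across neurons. It was at 265, 323 and 301 CPM in the oxygen libraries and at 252, 275 and 351 CPM in the sevoflurane libraries of the glutamatergic-like class, above the GABAergic-like mean of 244 CPM in 5 of 6 libraries.

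Among silent subunits, KCNG3 alone reached 10 CPM. It was at 46.8 ± 12.3 CPM in glutamatergic-like neurons and at 3.65 CPM in GABAergic-like neurons, where the 4 clusters lay between 2.93 and 4.89 CPM. Endothelial-like cells had 33.0 ± 27.9 CPM, below the glutamatergic-like value in 5 of 6 libraries. Dentate granule-like cluster 8 (63.9 CPM), cluster 18 (62.8 CPM) and cluster 5 (60.4 CPM) held the highest neuronal levels, while deep layer or subicular-like cluster 13 had 7.89 CPM. KCNG1 reached 9.52 CPM in glutamatergic-like neurons, and KCNF1, KCNS1 and KCNV1 had at most 3.14 CPM in these classes.

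The KCNH group held wide contrasts between neuron clusters, as did KCNC2 (1435 CPM in cluster 16 against 22.6 CPM in cluster 20). KCNH1, an EAG channel, was at 787, 567 and 728 CPM in oxygen replicates 1 to 3 and at 791, 752 and 1352 CPM in sevoflurane replicates 1 to 3 of the glutamatergic-like class, the last library being highest. GABAergic-like neurons had 374 ± 59.1 CPM of KCNH1. KCNH7, an ERG channel, could not be ordered between the neuron classes. Its glutamatergic-like values were 614, 439 and 338 CPM in the oxygen libraries and 337, 246 and 826 CPM in the sevoflurane libraries, above the GABAergic-like value in 3 of 6. Single clusters differed far more: KCNH7 was at 1154 ± 145 CPM in cluster 19 and 968 CPM in cluster 20, against 28.0 ± 6.73 CPM in cluster 5 and 20.7 CPM in cluster 6.

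KCNH5, another EAG channel, and KCNH8, an ELK channel, were highest outside neurons. KCNH5 in OPC-like cells was at 250, 280 and 287 CPM in the oxygen libraries and at 449, 286 and 374 CPM in the sevoflurane libraries. Glutamatergic-like neurons had 83.6 ± 114 CPM of KCNH5, a mean raised by sevoflurane replicate 3 (313 CPM), the library that filled cluster 25, where KCNH5 was at 427 CPM over 3 libraries. KCNH8 in OPC-like cells was at 157, 223 and 251 CPM in the oxygen libraries and at 320, 130 and 183 CPM in the sevoflurane libraries. GABAergic-like neurons followed with 64.5 CPM and glutamatergic-like neurons with 5.98 CPM. Among interneurons KCNH8 had 115 CPM in caudal ganglionic eminence-like cluster 2 and 2.93 CPM in medial-like cluster 16. Cluster 3 is medial-like too, and its KCNH8 value is not given here. In pyramidal-like cluster 6 the libraries ran from 2.34 to 362 CPM, the highest being oxygen replicate 2 with 21 cells. KCNH2, the cardiac ERG subunit, reached 19.4 ± 2.56 CPM in GABAergic-like neurons, and KCNH3 27.9 ± 6.05 CPM in glutamatergic-like neurons.

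Kv7 transcripts were high in both neuron classes. KCNQ5 in glutamatergic-like neurons was at 3469, 3832 and 4198 CPM in oxygen replicates 1 to 3 and at 3071, 3433 and 3588 CPM in sevoflurane replicates 1 to 3, against a mean of 1771 ± 385 CPM in GABAergic-like neurons. The pyramidal-like clusters differed most. Cluster 5 had 8905, 10280 and 8632 CPM in the oxygen libraries and 6767 and 6897 CPM in sevoflurane replicates 1 and 2, while cluster 7 had 724, 1638 and 1074 CPM and 405 and 631 CPM, so the 2 clusters did not overlap. Cluster 6 lay between them at 4348 CPM. The interneuron clusters also differed, with 769 ± 342 CPM in medial-like cluster 3 and 2550 ± 576 CPM in caudal-like cluster 2.

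KCNQ3, which joins other Kv7 subunits in M channels, was at 1421, 1231 and 1090 CPM in oxygen replicates 1 to 3 and at 1419, 1338 and 1575 CPM in sevoflurane replicates 1 to 3 of the GABAergic-like class. That exceeded the glutamatergic-like mean of 891 ± 249 CPM in 6 of 6 libraries. KCNQ1, best known from heart and epithelia, was highest in oligodendrocyte-like cells: 111, 87.9 and 88.3 CPM in the oxygen libraries and 118, 143 and 120 CPM in the sevoflurane libraries. OPC-like cells had 82.4 ± 19.8 CPM and astrocyte-like cells 7.97 CPM. In RefSeq's gene table (assembly calJac240_pri) a long non-coding RNA gene overlaps KCNQ1, and the strand used in counting is not given in the sources used here, so reads of the pair cannot be told apart.

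**Figure D2:**
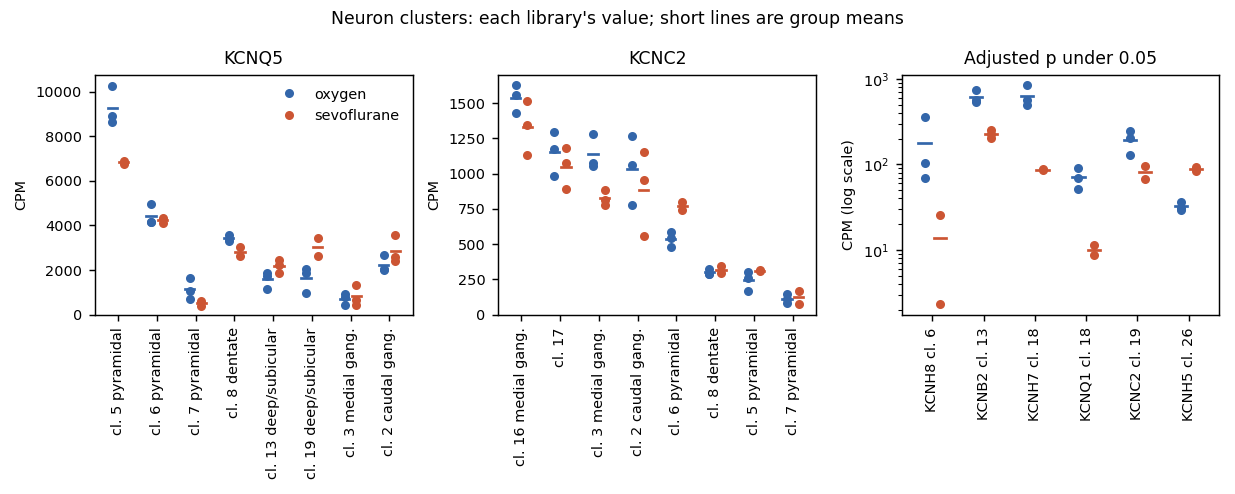
CPM of each library, with group means as short lines, of KCNQ5 (left) and KCNC2 (middle) in neuron clusters on linear axes, and of the members whose adjusted p was under 0.05 (right) on a log axis. KCNQ5 is far higher in cluster 5 than in cluster 7 in every library shown, and KCNC2 is highest in cluster 16.

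Free RNA from broken neurons can give UMIs in other cells, so each member's level in a non-neuronal class was divided by its level in glutamatergic-like neurons and set beside the same ratio of 11 neuron markers. The markers' ratios ran from 0.0904 to 0.936 in OPC-like cells (median 0.231), from 0.0855 to 0.986 in astrocyte-like cells and from 0.116 to 1.32 in oligodendrocyte-like cells. Above the highest marker in OPC-like cells stood KCNH8 (55.6), KCNH5 (8.43), KCND2 (2.78), KCNH2 (2.20) and KCNQ1 (1.58). In astrocyte-like cells KCNH2 (1.67) and KCNA1 (1.65) did so, and in oligodendrocyte-like cells KCNQ1 (1.95). The ratio takes no account of free RNA from GABAergic-like neurons. Among the 7 classes that every library filled, KCNH2 was highest there (19.4 CPM, against 14.1 CPM in OPC-like cells). Its ratios in OPC-like and astrocyte-like cells therefore cannot tell such RNA from their own. No member stood above the highest marker in microglia-like cells (1.48), whose median depth was 1697 UMIs per cell against 7230 in glutamatergic-like neurons. KCNQ3, like the others not above that marker in microglia-like cells, differed in level between non-neuronal classes. It was at 492, 819 and 565 CPM in microglia-like cells of oxygen replicates 1 to 3 and at 1408, 953 and 294 CPM in those of sevoflurane replicates 1 to 3, against class means of 69.0 to 139 CPM in ependymal-like, astrocyte-like, endothelial-like and oligodendrocyte-like cells. OPC-like cells lay between, with a mean of 300.0 CPM, above the microglia-like value in 1 of 6 libraries. The part of free RNA in these KCNQ3 levels was not tested.

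Ependymal-like cells, the ciliated lining of the ventricles, had their own profile over the 5 libraries that filled the class. KCNH8 was at 639, 518 and 579 CPM in oxygen replicates 1 to 3 and at 734 and 725 CPM in sevoflurane replicates 1 and 2, about 210.2-fold the glutamatergic-like level by the median library. KCNH2 (48.9 CPM, 10.2-fold) and KCNC2 (285 CPM, 1.17-fold) also stood above the highest neuron marker there (0.840). For KCNC2 that level was below the GABAergic-like mean of 1102 CPM, and the ratio does not cover free RNA from those neurons. KCNB2 was at 29.0 to 58.3 CPM in OPC-like, astrocyte-like, oligodendrocyte-like, microglia-like, endothelial-like and ependymal-like cells. Its ratios of 0.0793 to 0.144 there are no larger than those of neuron markers, and it is not read as their own expression. Choroid plexus-like cells, nearly all from sevoflurane replicate 1, had 147 CPM of KCNH5 and 51.3 CPM of KCNH8 in that library.

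**Figure D3:**
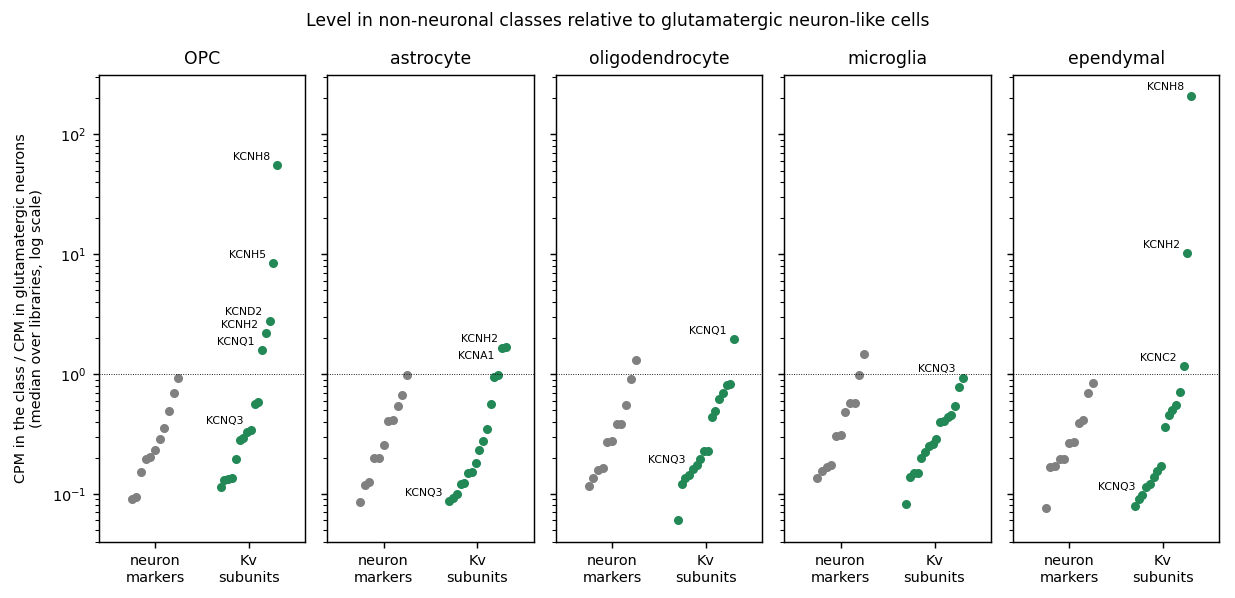
Ratio of CPM in each non-neuronal class to CPM in glutamatergic-like neurons (median over libraries, log axis) for neuron markers and for Kv alpha subunits, 1 point per gene. KCNH8, KCNH5 and KCND2 stand above every marker in OPC-like cells, and KCNH8 (210.2) and KCNH2 (10.2) do so in ependymal-like cells.

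The sevoflurane comparison was made with edgeR's quasi-likelihood test on counts summed per library, with Benjamini-Hochberg adjustment over all genes tested and a call at an adjusted p under 0.05. The shares of all genes given beside the counts are edgeR's, and those of DESeq2 were not counted. Over all cells, 0 of 29 tested members were called (4 had an unadjusted p under 0.05, and DESeq2 called 2), beside 0% of the 19236 genes tested, 10.1% of which had an unadjusted p under 0.05. The median log2 fold change of the members was -0.02, against 0.02 for all genes. In a sum over all cells, fewer cells of a type and less RNA per cell cannot be told apart. Within the 10 classes fitted, 0 of 158 tests of members were called (28 had an unadjusted p under 0.05, and DESeq2 called 1), where 0.0186% of all tests were called and 7.64% had an unadjusted p under 0.05. By direction, 78 of the 158 fold changes were negative and 80 positive, beside 48.8% negative over all genes.

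KCNB2 had the lowest p among members in all cells and in 6 of the 10 classes. Over all cells it was at 424, 324 and 368 CPM in oxygen replicates 1 to 3 and at 214, 212 and 166 CPM in sevoflurane replicates 1 to 3, so every sevoflurane library lay below every oxygen library. The log2 fold change was -0.97 ± 0.15 (SE), with an unadjusted p of 0.00041 and an adjusted p of 0.26 by edgeR and 0.000134 by DESeq2. In glutamatergic-like neurons, whose values are given above, it was -1.16 ± 0.15, with an adjusted p of 0.37 by edgeR and 4.09e-06 by DESeq2. Beside it, the summed neuron marker list overlapped between groups in that class (7418 to 7697 against 6011 to 7717 CPM), while 4 Cajal-Retzius markers were lower after sevoflurane (43.2 to 57.3 against 7.33 to 12.8 CPM). Their part in the result was not tested.

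The lower KCNB2 level recurred across fits, which share their 6 libraries and, between a class and its clusters, their cells. KCNB2 could be tested in 22 of the 23 classes and clusters, its fold change was negative in 22, and in 17 the sevoflurane libraries lay wholly below the oxygen libraries, where 8.50% of all tests did so (4.07% to 17.5% by fit) and 48.9% of all fold changes were negative. The median of the 22 log2 fold changes was -0.77, and they ranged from -1.52 to -0.21. Caudal-like interneuron cluster 2 had 138, 140 and 129 CPM in the oxygen libraries and 96.6, 97.8 and 99.1 CPM in the sevoflurane libraries. Dentate granule-like cluster 8 had 298, 390 and 352 CPM against 245 and 248 CPM. In GABAergic-like neurons as a class the groups overlapped (179, 156 and 150 against 122, 98.7 and 157 CPM), as they did in clusters 3, 6 and 16 and in endothelial-like cells. In astrocyte-like, oligodendrocyte-like and microglia-like cells, the ratio of KCNB2 to its glutamatergic-like level was no larger than those of neuron markers. The log2 fold changes of KCNB2 there were -1.25, -1.11 and -1.04, none of them called.

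KCNB2 fell in deep layer or subicular-like cluster 13, the only fit in which it was called. There it was at 563, 738 and 537 CPM in oxygen replicates 1 to 3 and at 253, 229 and 205 CPM in sevoflurane replicates 1 to 3, a log2 fold change of -1.52 ± 0.17 (edgeR adjusted p 0.017). In that cluster 1.00% of all genes were called. Without sevoflurane replicate 1 or 2 the adjusted p by edgeR was 0.064 or 0.055. The deep layer or subicular list overlapped between groups there, and 9 astrocyte markers were lower after sevoflurane (212 to 259 against 376 to 502 CPM), a difference whose part was not tested. In RefSeq's table other genes overlap several called members, so that their reads may not be told apart either: a pseudogene overlaps KCNB2, GCA and another protein-coding gene and 2 long non-coding RNA genes overlap KCNH7, a protein-coding gene overlaps KCNH5, and a long non-coding RNA gene overlaps KCNH8.

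**Figure D4:**
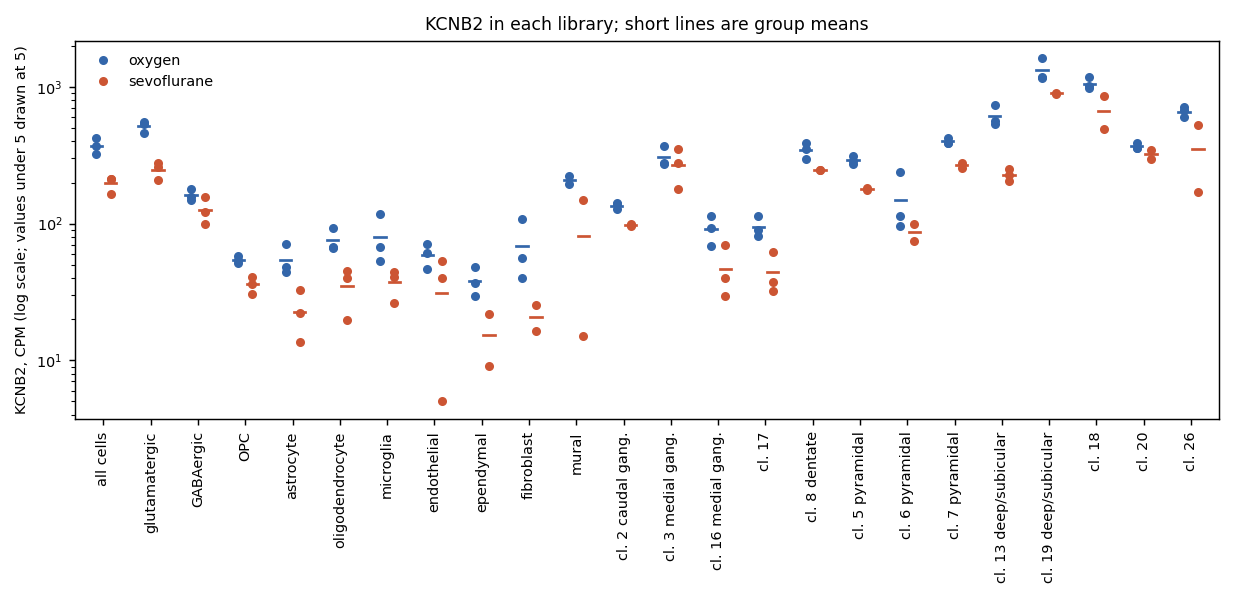
KCNB2 in CPM (log axis) in each library, over all cells and in each class and neuron cluster fitted, with group means as short lines. In cluster 13 the 3 oxygen libraries lie between 537 and 738 CPM and the 3 sevoflurane libraries between 205 and 253 CPM.

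KCNG1, a silent partner of Kv2 subunits, had low counts. Its log2 fold change was negative in 11 of 12 fits, beside 48.9% of all fold changes, and 9 fits had the sevoflurane libraries wholly below, beside 8.50% of all tests. The median was -1.01, yet 0 of 12 were called (6 had an unadjusted p under 0.05, as 10.1% of all tests did). In glutamatergic-like neurons it was at 10.7, 16.4 and 13.1 CPM in the oxygen libraries and at 7.72, 7.90 and 1.34 CPM in the sevoflurane libraries.

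In single neuron clusters, 6 of 243 tests of members were called, beside 0.914% of all tests. Of the 6, 5 were lower and 1 was higher after sevoflurane, beside 0.596% and 0.318% of all tests. Cluster 18, a glutamatergic cluster that the subtype lists did not name, held 2 of them among 6.92% of all genes called. KCNH7 fell there from 836, 488 and 572 CPM in oxygen replicates 1 to 3 to 85.0 and 87.8 CPM in sevoflurane replicates 1 and 2 (log2 fold change -3.01 ± 0.29, edgeR adjusted p 0.000298). KCNQ1 fell from 69.1, 90.1 and 51.6 CPM to 11.3 and 8.78 CPM (-2.85 ± 0.47, edgeR adjusted p 0.0051), and without sevoflurane replicate 1 or 2 its adjusted p was 0.12 or 0.10. The groups overlapped for neither gene. Sevoflurane replicates 1 and 2 held 352943 and 227771 UMIs of the cluster in all, so their KCNQ1 values rest on few UMIs. KCNH1 had the opposite sign there, at 1026, 822 and 984 against 1723 and 1422 CPM, and was not called (0.60, adjusted p 0.065 by edgeR).

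The cells grouped as cluster 18 also differed between the groups in their markers. The neuron list was lower after sevoflurane (7529 to 8112 against 5918 to 6072 CPM), and so were the cortical upper layer list (925 to 1006 against 536 to 643 CPM) and the Cajal-Retzius list (154 to 254 against 0 to 11.3 CPM). The glutamatergic list (1620 to 2142 against 2530 to 2696 CPM) and the deep layer or subicular list (895 to 1209 against 1554 to 1895 CPM) were higher. The sevoflurane libraries held 52 and 35 cells of it against 446, 77 and 319 in oxygen. The part of these differences in the KCNH7 and KCNQ1 values was not tested.

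KCNC2 fell in deep layer or subicular-like cluster 19, from 128, 201 and 244 CPM in the oxygen libraries to 94.6 and 67.6 CPM (-1.30 ± 0.28, edgeR adjusted p 0.030; 2.45% of all genes called). Oxygen replicate 2 held 20 cells of that cluster, and the call was lost without oxygen replicate 3 (adjusted p 0.17), sevoflurane replicate 1 (0.091) or sevoflurane replicate 2 (0.40), and with doublets kept (0.065). The deep layer or subicular list was at 1403 to 2016 CPM in oxygen and 2047 to 2106 CPM after sevoflurane, and the fibroblast list at 53.3 to 154 against 5.26 to 12.6 CPM, their part not tested. KCNQ3 was at 802, 740 and 757 against 1155 and 1245 CPM in the same cluster (0.56, edgeR adjusted p 0.056).

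KCNH8 fell in pyramidal-like cluster 6, from 69.0, 362 and 103 CPM to 2.34 and 25.4 CPM, with 21 to 33 cells per library (-3.36 ± 0.60, edgeR adjusted p 0.012; 0.509% of all genes called). DESeq2 gave an adjusted p of 0.24, and without oxygen replicate 3 that of edgeR was 0.060. Sevoflurane replicate 1 held 427252 UMIs of the cluster in all, so its 2.34 CPM rests on few UMIs of KCNH8. The list of caudal ganglionic interneurons, which include cluster 2, was at 130 to 222 CPM in the oxygen libraries and 30.4 to 95.8 CPM in the sevoflurane libraries of the cluster, its part not tested. KCNH8 was also tested in 11 other fits, 10 of the 12 having a negative sign, while its OPC-like fold change was 0.00 ± 0.25.

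KCNH5 was the only member called higher after sevoflurane. Cluster 26 was left unnamed: the glutamatergic list scored highest in it, but none of that list's genes and 1 from another list (DCN, a fibroblast marker) stood among its 10 leading genes, and THEMIS, a T cell marker, also led it. In cluster 26 KCNH5 was at 36.4, 29.2 and 31.1 CPM in oxygen replicates 1 to 3 and at 83.1 and 93.1 CPM in sevoflurane replicates 1 and 3. Those sevoflurane libraries held 26 and 485 cells of the cluster. The log2 fold change was 1.39 ± 0.24 (edgeR adjusted p 0.031, with 0.715% of all genes called). DESeq2 gave 0.093, and edgeR's adjusted p was 0.086 without oxygen replicate 1, 0.091 without oxygen replicate 3 and 0.65 without sevoflurane replicate 3. The hippocampal pyramidal list was at 950 to 1037 CPM in oxygen and 637 to 757 CPM after sevoflurane, and the T cell list, which holds THEMIS, at 35.2 to 47.8 against 87.0 to 156 CPM, their part not tested. In cluster 20 all 15 tested members had a negative fold change (median -0.39, against 0.00 for all genes), beside 49.9% of all genes. None was called, beside 0.0591% of all genes, and 5 had an unadjusted p under 0.05 by edgeR, beside 11.4% of all genes. These fold changes share the same 3 oxygen and 2 sevoflurane libraries, the latter with 123 and 38 cells of the cluster.

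**Figure D5:**
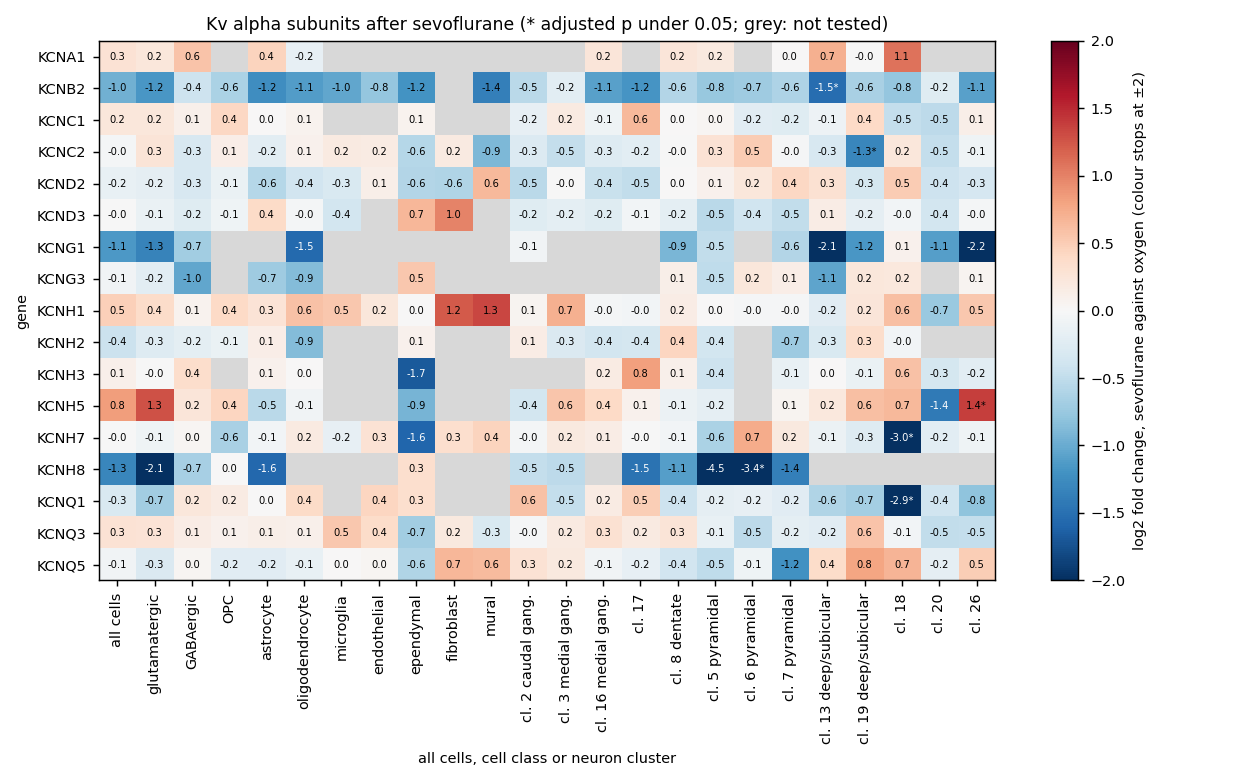
Log2 fold change after sevoflurane (edgeR, colour, stopping at ±2) of Kv alpha subunits in all cells, classes and neuron clusters, with stars at an adjusted p under 0.05 and grey where a gene was not tested. The KCNB2 row is below 0 wherever it was tested, and the 6 stars lie in clusters 6, 13, 18, 19 and 26.

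Partners of the alpha subunits were read from the same fits: cytoplasmic beta subunits, KChIP and DPP proteins of Kv4, KCNE and AMIGO1 partners, anchoring proteins and Kv7 regulators, 29 of 33 listed symbols being named in the files. None was called over all cells (0 of 25, beside 0% of all genes; 2 with an unadjusted p under 0.05, DESeq2 1). None was called in the classes (0 of 179, beside 0.0186% of all tests), where 20 had an unadjusted p under 0.05, beside 7.64% of all tests, and DESeq2 called 2. In clusters 4 of 271 tests were called, beside 0.914% of all tests, 2 of them lower and 2 higher, beside 0.596% and 0.318%. KCNE2, a small partner of ERG and Kv7 channels, rose in GABAergic-like cluster 17 from 44.3, 39.6 and 42.6 CPM in oxygen replicates 1 to 3 to 143, 100.4 and 185 CPM in sevoflurane replicates 1 to 3 (1.68 ± 0.24, edgeR adjusted p 0.022; 0.493% of all genes called). That call was lost without oxygen replicate 1 (0.060), 2 (0.12) or 3 (0.18). Over the whole GABAergic-like class KCNE2 was at 42.5, 42.2 and 39.9 against 91.1, 75.6 and 107 CPM, with no overlap; it was called by DESeq2 and not by edgeR (adjusted p 0.0502, log2 fold change 1.08 ± 0.14).

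Cluster 18, whose markers differed as given above, held the other 3 calls. KCNE2 rose there from 20.5, 24.4 and 14.0 CPM to 105 and 52.7 CPM (1.98 ± 0.37, edgeR adjusted p 0.0093), a call lost without sevoflurane replicate 1 (0.32). KCNAB1, a Kv1 beta subunit, fell from 210.1, 241 and 248 CPM to 34.0 and 65.9 CPM (-2.43 ± 0.27, edgeR adjusted p 0.000619). EPB41L3, which anchors Kv1 complexes beside the nodes of Ranvier, fell from 116, 92.6 and 115 CPM to 62.3 and 52.7 CPM (-1.04 ± 0.25, edgeR adjusted p 0.032), a call held in 4 of 9 alternatives and lost without oxygen replicate 1 or 3 or either sevoflurane library (adjusted p up to 0.23).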

How the data were processed

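Gene by cell UMI count matrices were deposited for 6 libraries, made with Cell Ranger 6.1.1 per the file headers; the submitters' processing notes also list CASAVA 1.8 and Seurat. The genome build is not given in the sources used here. Barcodes with 500 UMIs and 200 genes were kept (every deposited barcode passed), doublets were removed by simulation (4.49% to 5.93% per library), and cells were clustered (scanpy 1.11.5; 2000 variable genes without the Kv and partner genes, 30 components, Leiden resolution 1). Clusters were named from marker lists; the limits for naming were chosen with the data in view. Counts were summed per library and class or cluster where a library held 20 cells, and fitted with edgeR 4.0.16 (filterByExpr, TMM, glmQLFit) on all genes where 2 libraries per group remained. The scripts were tested on simulated data. Counts cover all 38 members, but some are not reported here by name. The members and lists were chosen with earlier results of these data known. Named were members with 10 CPM in a class, every member called in a fit, the 2 next by p in each fit as values, and called partner genes; a few next-by-p values are printed and the others are within the counts. Alternatives were DESeq2 1.42.0, no expression filter, a replicate block, leaving out each library, keeping doublets, Leiden resolution 0.5, and Kv genes allowed among the variable genes. Leiden resolution 0.5 and the added Kv genes were applied to classes only.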

Additional observations from a re-analysis of the deposited data

Results flagged for a closer look

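Members and partner genes whose libraries moved without overlap in opposite directions in 2 cell groups were marked for a closer look; the differences themselves were not tested, and several fits hold only 2 sevoflurane libraries. KCNC2 was higher after sevoflurane in hippocampal pyramidal-like cluster 6 (log2 fold change 0.51, 479 to 583 against 746 to 796 CPM) and lower in clusters 19 (-1.30) and 3 (-0.48, 1055 to 1285 against 776 to 888 CPM). KCNH1 was higher in clusters 18 (0.60) and 26 (0.55) and lower in cluster 20 (-0.74, 172 to 214 against 121 to 123 CPM). KCNQ3 was higher in clusters 16 (0.30) and 19 (0.56) and lower in clusters 20 (-0.50) and 6 (-0.52). CNTNAP2, an anchor of Kv1 channels, was higher in mural-like cells (1.04) and lower in ependymal-like cells (-0.87). The mural-like fit held 2 libraries per group with 20 to 27 cells each. In the fits named as higher, 8.39% to 28.2% of all genes were higher without overlap. In those named as lower, 5.60% to 14.8% of all genes were lower without overlap. Of these values, KCNC2 in cluster 19 was the only one called by edgeR.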

How the results depend on the processing

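KCNB2 kept its negative sign in 21 to 23 of the fits that tested it under each alternative run; the exception was 1 of 22 fits without sevoflurane replicate 2. Calls depended more on the tool. Fits in which KCNB2 was called numbered 1 in the main analysis, 7 with DESeq2, 10 with no filter, 2 with doublets kept and 0 to 4 with a library left out (0 without sevoflurane replicate 2, 4 without oxygen replicate 1). Members called by class numbered 0, against 1 with DESeq2, 3 with no filter and 0 to 2 with a library left out. Members called in neuron clusters numbered 6, against 12 with DESeq2 (4 shared), 30 with no filter and 3 to 10 with a library left out. Members called in all cells were 0, against 2 with DESeq2. Partner genes called by class numbered 0, against 2 with DESeq2, 3 with no filter, 2 with the replicate block and 0 to 3 with a library left out. In clusters they numbered 4, against 13, 29, 2 and 3 to 7, and in all cells 0, against 1 with DESeq2. The share of all genes called was counted for the main analysis only. The counts under other settings are therefore not read as particular to the Kv or partner genes. In cluster 18, KCNH7 and KCNAB1 were called under the 9 alternatives run. Clusters 6, 18, 19 and 26 have 2 sevoflurane libraries, so leaving out either assumes that the lone one varies like the oxygen libraries. The highest class was the same for 13 of the 14 members above 50 CPM when CPM was averaged over cells, the exception being KCNH7. The number of fits testing KCNG1 went from 12 to 21 with DESeq2 and 22 with no filter. KCNH1 in fibroblast-like cells ranged from -0.23, without sevoflurane replicate 3, to 2.01, without sevoflurane replicate 1, against 1.22. Among single fold changes under alternatives, 961 kept sign and side of the threshold, or sign alone where no adjusted p was given. Of the others, 79 came under the threshold, 27 no longer did and 1 reversed.

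The labels do not say whether replicate numbers pair the libraries. After each group's mean was subtracted, same-numbered libraries correlated between -0.32 and 0.14 and the others between -0.21 and 0.32. With 3 libraries per group and unlike makeup, these correlations cannot decide on pairing. With the replicate block, 6 members were called in clusters (4 shared with the main calls), KCNB2 stayed called in 1 fit, and KCNC2 in cluster 19 (adjusted p 0.094 by edgeR), KCNH5 in cluster 26 (0.14), KCNE2 in clusters 17 (0.070) and 18 (0.051) and EPB41L3 in cluster 18 (0.083) were not. Counts of under 1 CPM limited the 9 untested members, and clusters with 20 to 35 cells in a library gave wide errors.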
